A study of Ovis aries with 9 samples.

Results

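A set of 9 genes of the retinoid pathway, which carries vitamin A into cells and turns it into the signal retinoic acid, was followed in hypothalamic RNA of Dolang ewes through puberty. They were RBP4, STRA6, CRABP1, ALDH1A1, ALDH1A2, RARA, RARB, RXRA and RXRG, 9 of the 21284 genes that had a RefSeq mRNA row, and they comprised 58 of 76684 mRNA transcripts. The genes were chosen by their place in the pathway, and with the FPKM of 1 RBP4 transcript already known to be above 0 only in postpuberty. RBP4 is therefore described, and not tested, in comparisons with that stage.

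The study sampled 9 healthy ewes under the same management, with 1 library for each animal. The prepuberty ewes (n = 3, aged 120 to 121 days) did not accept rams, the puberty ewes (n = 3, 130 to 131 days) accepted them for the first time, and the postpuberty ewes (n = 3, 150 to 151 days) no longer did. Age and stage rose together, so they cannot be told apart. Values are FPKM, the fragments of a transcript scaled to its length and to library depth, and the level of a gene is the sum over its NM and XM transcripts.

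Libraries are named by stage and replicate number. Puberty 2 stood apart: its FPKM summed to 599726 against 359588 to 398109 in the other 8 libraries, it had 15577 genes above 0 against 17180 to 17763, and its rank correlation with the others was 0.678 to 0.729 against 0.849 to 0.954 among those 8. Of 10252 genes with at least 1 FPKM in all of the other 8 libraries, 450 were listed at 0 in Puberty 2, so the differences of the 9 genes that involve puberty are given with and without it. Of 10 markers of the labelled tissue, 4 were near 0, with NKX2-1 at 0.262 FPKM or less, AGRP at 0.169, SIM1 at 0.111 and GHRH at 0.0626. The peptide genes SST (4.27 to 107), TRH (0.824 to 36.8), POMC (2.09 to 22.4), AVP (0.551 to 10.4) and OXT (0.319 to 4.81) were present in all libraries, and the transcription factor OTP was listed at 0 in Puberty 2 and reached 4.91 in Prepuberty 3. POMC is also a pituitary gene, and of the markers of pituitary, PRL ranged from 0.0562 to 199.5 FPKM and GH was listed at 0 in 2 libraries and reached 12.2 in Postpuberty 1. The sum of all 10 pituitary and pars tuberalis markers was 50.3 to 132 in prepuberty, 105 to 266 in puberty and 118 to 255 in postpuberty. CHGA, which neurons also express, carried much of it (28.9 to 166), as in Prepuberty 2 with 123 of 132, but not in Postpuberty 1. There CHGA was 28.9 of 255 and PRL was 199.5, and in Postpuberty 2 PRL was 74.4 of 208. The part of pituitary tissue in the results was not tested. The summed FPKM of the 10 hypothalamic markers ranged from 26.0 to 103 in prepuberty, 56.3 to 85.0 in puberty and 27.3 to 151 in postpuberty.

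Vitamin A circulates as retinol bound to retinol-binding protein, which travels with transthyretin and is taken up through the membrane receptor STRA6. Inside the cell, dehydrogenases oxidise retinol to retinal and then to retinoic acid, which binds receptors of the RAR family that act as pairs with RXR partners on DNA. In the hypothalamus of seasonal mammals, retinoic acid made by ependymal cells and tanycytes has been linked to day length, feeding and body growth.

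The 9 genes differed widely in abundance, from RBP4 at the top to STRA6 at the bottom. Over the 8 libraries other than Puberty 2, the mean was 38.8 FPKM for RBP4, 13.9 for ALDH1A1, 12.7 for CRABP1, 7.77 for RXRA, 3.51 for RARB, 2.78 for RXRG, 1.88 for RARA, 1.87 for ALDH1A2 and 1.06 for STRA6. RBP4 was above ALDH1A1 and RXRA above RARB in 9 of 9 libraries, and the ranges of those 2 pairs did not overlap in the 8 libraries. Each of the other neighbours in this order overlapped in range. ALDH1A1 exceeded CRABP1 in 7 of 9 libraries and RARA exceeded ALDH1A2 in 6 of 9.

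**Figure D1:**
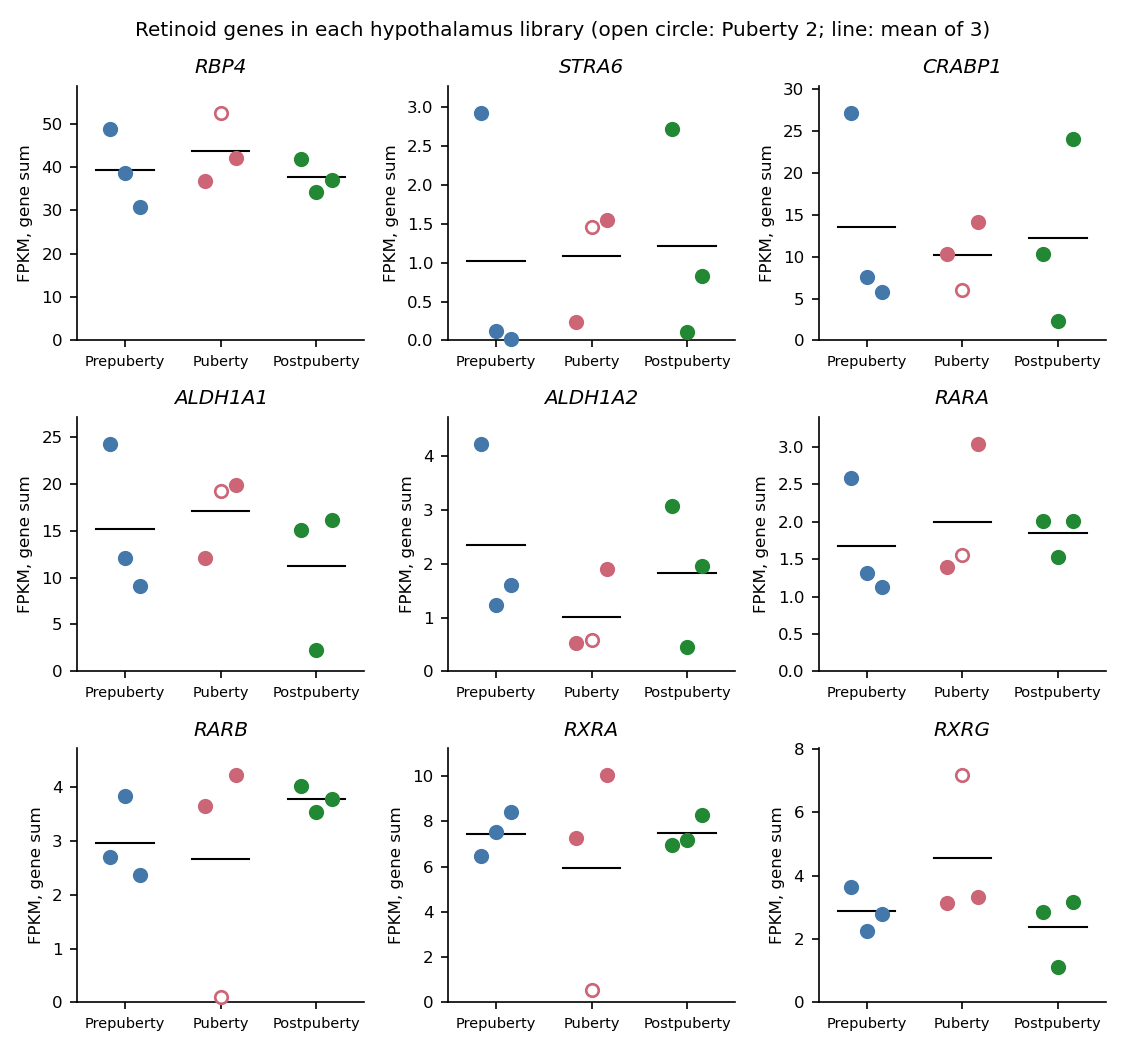
FPKM of each gene (sum of its mRNA transcripts, linear axis from 0) in the 3 libraries of prepuberty, puberty and postpuberty; each circle is 1 animal, the open circle is Puberty 2 and the line is the mean of the 3 libraries. The stages overlap for all 9 genes, and Puberty 2 is at the bottom for RARB (0.0939 FPKM) and RXRA (0.567) and at the top for RBP4 (52.4) and RXRG (7.17).

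No gene of the 9 separated the stages. With limma on log2(FPKM + 1), called at an adjusted p below 0.05 and a log2 fold change of at least 1, 0 of the 9 genes were called between prepuberty and puberty, and 0 of the 8 that could be tested were called in each comparison with postpuberty. The same fit called 0 of 14238 genes, which is 0% in each comparison, and 0% without Puberty 2. An unadjusted p below 0.05 was reached by 1.82% of all genes between prepuberty and puberty, by 2.14% between puberty and postpuberty and by 0.815% between prepuberty and postpuberty, and by 0 of the retinoid genes tested. Without Puberty 2 these shares were 1.66%, 2.11% and 1.87%. The first and second shares rose to 5.09% and 5.25% without Puberty 1 and to 4.40% and 5.88% without Puberty 3, and the second fell to 1.38% without Postpuberty 1. With any 1 library left out, 0 of the retinoid genes tested reached that level.

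The FPKM of 0 of the 9 genes were fully separate between 2 stages. Among all genes the libraries did not overlap for 5.16% between prepuberty and puberty, for 7.32% between puberty and postpuberty and for 4.57% between prepuberty and postpuberty. With 2 puberty libraries, the shares of all genes were 11.7% and 14.0% in the comparisons that involve puberty, and the count for the 9 genes was still 0.

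The median log2 fold change over all genes was not 0, being 0.14 for prepuberty minus puberty, -0.19 for puberty minus postpuberty and -0.05 for prepuberty minus postpuberty. Beside these, the medians of the retinoid genes were -0.16 (9 genes), 0.03 (8 genes, RBP4 set aside) and 0.12 (8 genes). Relative to the median of all genes, single retinoid genes ranged from -0.60 to 0.56, from -0.50 to 1.06 and from -0.24 to 0.67. Without Puberty 2 the medians of all genes were -0.02, -0.03 and -0.05, and those of the retinoid genes -0.14, 0.15 and 0.12.

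**Figure D2:**
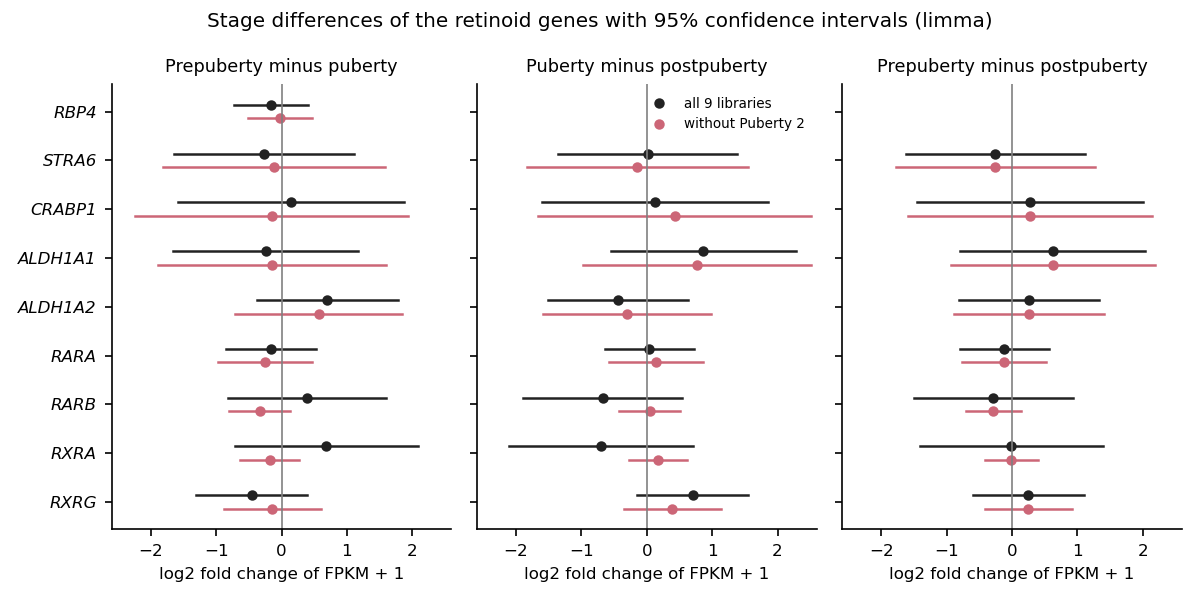
Log2 fold change of FPKM + 1 (x axis, first stage minus second) with its 95% confidence interval from limma for each gene in each comparison, from all 9 libraries (black) and without Puberty 2 (red); RBP4 is left out where postpuberty is involved because it was chosen with that pattern known. Every interval spans 0, and those of RARB and RXRA narrow most when Puberty 2 is left out.

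RBP4 encodes the plasma carrier of retinol and lies on chromosome 22 at 14677595 to 14692459 of the sheep assembly ARS-UI_Ramb_v3.0. Its gene sum was 48.7, 38.7 and 30.9 FPKM in prepuberty, 36.9, 52.4 and 42.2 in puberty and then 41.8, 34.2 and 36.9 in postpuberty. It was the steadiest of the 9 genes together with RXRA, with a coefficient of variation of 14.1% over the 8 libraries and a highest value 1.58 times the lowest. The stage means were 39.4 ± 8.94, 43.8 ± 7.91 and 37.6 ± 3.88 (SD, n = 3 each), or 39.5 in puberty without Puberty 2. Prepuberty minus puberty was -0.16 on the log2 scale (SE 0.25, 95% interval -0.73 to 0.41, adjusted p = 0.850, limma), or -0.02 without Puberty 2. The differences from postpuberty, given without a test, were 0.05 for prepuberty and 0.20 for puberty, the latter 0.07 without Puberty 2. Neither direction was stable: the first was -0.11 without Prepuberty 1, and the second was -0.027 after scaling every library to the same total.

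The 6 transcripts that made up this sum were unequal in level, and their proportions varied more between libraries than the sum did. XM_027960154.2 was the most abundant in 9 of 9 libraries, at 40.8, 25.6 and 16.8 FPKM in prepuberty, 24.3, 52.0 and 25.9 in puberty and then 32.8, 18.2 and 20.5 in postpuberty. Its share of the gene sum was lowest in Postpuberty 2 (53.2%) and highest in Puberty 2 (99.1%). Prepuberty 1 and Postpuberty 1 followed Puberty 2, with 83.7% and 78.3%. XM_042239100.1 was second, at 6.25, 12.2 and 10.9 FPKM in prepuberty, 11.2, 0.365 and 13.7 in puberty and then 3.49, 8.70 and 11.6 in postpuberty. Its lowest values fell in the libraries where XM_027960154.2 was highest. Prepuberty minus puberty was -0.29 for XM_027960154.2 (SE 0.44, adjusted p = 0.863, limma) and 0.74 for XM_042239100.1 (SE 0.83, adjusted p = 0.838), or 0.06 and -0.36 without Puberty 2.

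XM_042239101.1 is the transcript whose values were used to choose the gene. It was listed at 0 in all 6 prepuberty and puberty libraries and had 3.14, 3.90 and 3.25 FPKM in postpuberty. It held 7.51%, 11.4% and 8.80% of the postpuberty gene sums, a mean of 9.24% ± 1.98 (SD, n = 3). A second transcript, XM_060404617.1, had the same pattern at a lower level, with 0 in those 6 libraries and 0.189, 0.833 and 0.424 FPKM in postpuberty, and it did not reach the minimum mean of 0.5 FPKM for testing. An FPKM of exactly 0 can be a failed estimate, so no fold change is given. Leaving out Puberty 2 does not alter the pattern, since it lists both at 0 like the 5 other libraries of those stages.

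Set against the gene sum, the postpuberty transcripts were a minor part. Together they came to 3.33, 4.73 and 3.67 FPKM, which is 7.96%, 13.8% and 9.95% of RBP4 in those libraries. The other 4 transcripts summed to 38.5, 29.4 and 33.3 FPKM in postpuberty, against 30.9 to 48.7 in prepuberty and 36.9 to 52.4 in puberty. These ranges overlap for prepuberty and postpuberty, and also for puberty and postpuberty. The total including the postpuberty transcripts overlaps between stages as well.

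Few transcripts of any gene had such a pattern. Among the 27675 mRNA transcripts that passed the minimum, 6 (0.0217%) were listed at 0 in the 6 libraries of the other stages and above 0 in all 3 postpuberty libraries. For prepuberty the number was 12 (0.0434%), for puberty 5 (0.0181%), and 11 (0.0397%) for puberty when Puberty 2 was not considered. XM_042239101.1 was the only transcript of the 9 retinoid genes among the 6, and its presence there follows from how the gene was chosen.

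XM_060404616.1, the third transcript by level, had 1.13, 0.582 and 2.63 FPKM in prepuberty, 0.893, 0.0652 and 2.23 in puberty and then 1.49, 1.90 and 0.740 in postpuberty. XM_060404618.1 stayed below 1 FPKM throughout, between 0.0289 in Puberty 2 and 0.755 in Postpuberty 1. The lncRNA gene LOC132658407 lies inside the RBP4 span (14684257 to 14689609), at 0.103 to 0.363 FPKM. Whether counting used strand is not stated, so reads of the 2 genes cannot be told apart where they overlap. The 6 RBP4 transcripts come from 1 locus, and the FPKM of each rests on how StringTie divided the reads among them.

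**Figure D3:**
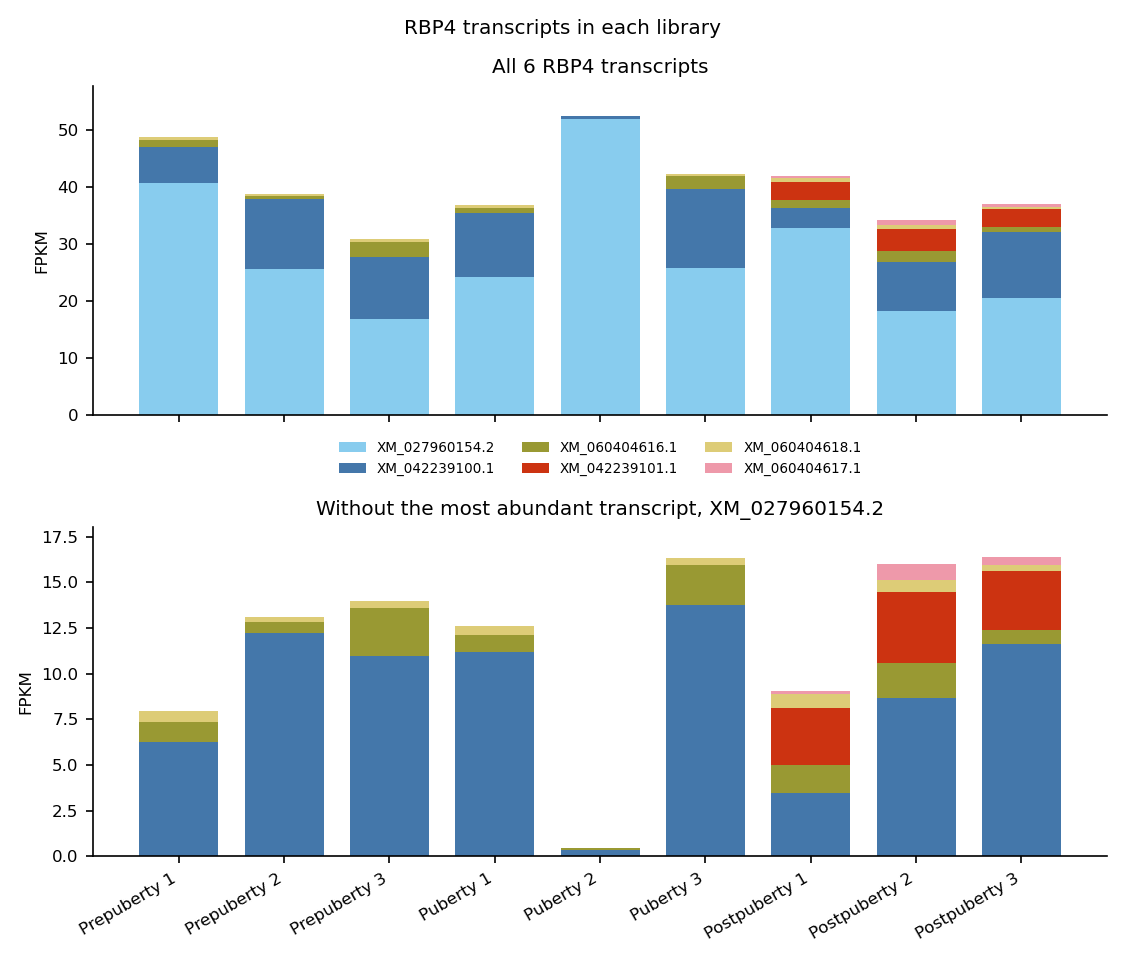
FPKM of the RBP4 transcripts in each of the 9 libraries as stacked bars (linear axes from 0), with all 6 transcripts above and without XM_027960154.2 below. XM_042239101.1 (red) and XM_060404617.1 (pink) are seen only in the 3 postpuberty libraries, while the whole bars stay between 30.9 and 52.4 FPKM, and Puberty 2 consists almost wholly of XM_027960154.2.

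STRA6, the cell-surface receptor that takes up retinol from RBP4 (chromosome 18, 32121007 to 32164870), was the least abundant and the most variable gene. It had 2.92, 0.117 and 0.0142 FPKM in prepuberty, 0.235, 1.46 and 1.56 in puberty and then 2.73, 0.107 and 0.828 in postpuberty. Within prepuberty alone the highest library was 205 times the lowest, and within postpuberty 25.4 times. With all 9 libraries the largest of its differences was -0.27 for prepuberty minus puberty (SE 0.61, 95% interval -1.64 to 1.1, adjusted p = 0.891, limma), which was -0.11 without Puberty 2. Puberty minus postpuberty was 0.01, or -0.14 without Puberty 2, and prepuberty minus postpuberty was -0.25.

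CRABP1, which holds retinoic acid in the cytoplasm (chromosome 18, 28562604 to 28570249), had 27.1, 7.60 and 5.81 FPKM in prepuberty, 10.3, 6.0 and 14.2 in puberty and then 10.4, 2.27 and 24.0 in postpuberty. High and low libraries occurred in each stage, with Prepuberty 1 and Postpuberty 3 at the top. The differences were 0.15, 0.13 and 0.28 for prepuberty minus puberty, puberty minus postpuberty and prepuberty minus postpuberty, each with an SE of 0.76. The smallest adjusted p was 0.951 (limma), and the intervals reached from -1.60 to 2.0, so differences of that size in either direction were not resolved. Without Puberty 2 the first turned to -0.15 and the second moved to 0.43.

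ALDH1A1 and ALDH1A2, which carry out the last step from retinal to retinoic acid, were detected in every library. ALDH1A3, an enzyme of the same step outside the 9 genes, had 0.396 to 2.93 FPKM. ALDH1A1 (chromosome 2, 63749292 to 63804375) had 24.2, 12.1 and 9.11 FPKM in prepuberty, 12.1, 19.2 and 19.8 in puberty and then 15.1, 2.31 and 16.1 in postpuberty. Puberty minus postpuberty was 0.86 (SE 0.63, 95% interval -0.55 to 2.28, adjusted p = 0.780, limma), with Postpuberty 2 far below all other libraries. Without Postpuberty 2 it was 0.088. Prepuberty minus puberty was -0.24 and prepuberty minus postpuberty 0.62. Leaving out 1 library could turn both, with ranges of -0.62 to 0.040 and -0.15 to 1.03. Without Puberty 2 the comparisons that involve puberty gave 0.77 with postpuberty and -0.14 with prepuberty.

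ALDH1A2 (chromosome 7, 50340734 to 50459952) had 4.23, 1.23 and 1.60 FPKM in prepuberty, 0.524, 0.593 and 1.90 in puberty and then 3.08, 0.445 and 1.97 in postpuberty. Its lowest values were in Postpuberty 2, Puberty 1 and Puberty 2, and every stage held a library of at least 1.90. Prepuberty minus puberty was 0.70 (SE 0.48, 95% interval -0.37 to 1.77, adjusted p = 0.838, limma), or 0.57 (SE 0.55) without Puberty 2 and 0.33 without Prepuberty 1. Puberty minus postpuberty was -0.44, or -0.30 without Puberty 2 and between -0.86 and -0.11 when 1 postpuberty library was left out, and prepuberty minus postpuberty was 0.26. For ALDH1A1 and ALDH1A2 the RefSeq rows held a single transcript, so gene and transcript values are the same.

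The retinoic acid receptors differed in how they behaved in Puberty 2. RARA (chromosome 11, 40303174 to 40346332) had 2.59, 1.32 and 1.13 FPKM in prepuberty, 1.40, 1.55 and 3.04 in puberty and then 2.01, 1.52 and 2.01 in postpuberty. Its differences were -0.16, 0.04 and -0.12 in the order given for CRABP1 (SE 0.30, smallest adjusted p 0.872, limma). Without Puberty 2, whose RARA was within the range of the others, the first was -0.25 and the second 0.14.

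RARB (chromosome 26, 39535523 to 40404880), a receptor whose own gene is a known target of retinoic acid, had 2.69, 3.83 and 2.37 FPKM in prepuberty, 3.66, 0.0939 and 4.22 in puberty and then 4.02, 3.54 and 3.78 in postpuberty. Puberty 2 was 0.0252 times the median of the other 8 libraries, which otherwise spanned 2.37 to 4.22. With all libraries, prepuberty minus puberty was 0.39 (SE 0.54, adjusted p = 0.841, limma) and puberty minus postpuberty -0.68 (SE 0.54, adjusted p = 0.780). Without Puberty 2 both turned, to -0.33 (SE 0.20, 95% interval -0.80 to 0.13) and 0.05 (SE 0.20, 95% interval -0.42 to 0.51). Prepuberty minus postpuberty, which does not use the puberty means, was -0.29 in both fits.

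RXRA (chromosome 3, 1850050 to 1942048), the partner of many nuclear receptors, was also far lower in Puberty 2. It had 6.47, 7.51 and 8.40 FPKM in prepuberty, 7.26, 0.567 and 10.0 in puberty and then 6.97, 7.20 and 8.30 in postpuberty. Puberty 2 was 0.0768 times the median of the other 8 libraries, whose coefficient of variation was 14.4%. Prepuberty minus puberty was 0.69 (SE 0.62, adjusted p = 0.838, limma) with all libraries and -0.18 (SE 0.19, 95% interval -0.63 to 0.27) without Puberty 2. Puberty minus postpuberty moved from -0.70 to 0.17 (95% interval -0.27 to 0.62), and prepuberty minus postpuberty was -0.01 in both.

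RXRG (chromosome 1, 117394084 to 117446688), the RXR form found mainly in brain and muscle, went the other way in Puberty 2. It had 3.63, 2.24 and 2.78 FPKM in prepuberty, 3.14, 7.17 and 3.34 in puberty and then 2.85, 1.11 and 3.16 in postpuberty. Puberty 2 was 2.39 times the median of the other 8 libraries. Puberty minus postpuberty was 0.71 (SE 0.38, 95% interval -0.14 to 1.55, adjusted p = 0.780, limma), or 0.39 (SE 0.32, 95% interval -0.35 to 1.13) without Puberty 2. Its unadjusted p of 0.0926 in that limma fit was the smallest of the 9 genes, and prepuberty minus puberty was -0.46, or -0.14 without Puberty 2.

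Puberty 2 thus stood on both sides of the other libraries, depending on the gene. Relative to the median of the other 8 libraries it held 2.74 times as much STRA6, 1.42 times as much ALDH1A1 and 1.39 times as much RBP4, but 0.339 times as much ALDH1A2, 0.580 times as much CRABP1 and 0.879 times as much RARA. Of the 27 gene differences (9 genes, 3 comparisons), 6 changed sign when it was left out, all in the comparisons that involve puberty. The 9 differences of prepuberty minus postpuberty do not use the puberty libraries and could not change.

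At the level of transcripts, 21 of the 58 passed the minimum mean of 0.5 FPKM in at least 1 stage. Between prepuberty and puberty 21 were tested, and in each comparison with postpuberty the 16 that do not belong to RBP4. Limma called 0 of them, and 0 had an unadjusted p below 0.05. The RBP4 transcript XM_042239101.1 is among the 21, although it passed the minimum only through postpuberty. It was listed at 0 in every prepuberty and puberty library, so its result was fixed before the test and says nothing. Among the 27675 transcripts of all genes, 0% were called with and without Puberty 2, and 3.10%, 3.44% and 1.72% had an unadjusted p below 0.05 in the order given for CRABP1. Leaving out Puberty 1 raised the first and second of these shares to 6.54% and 6.77%, leaving out Puberty 3 raised them to 6.58% and 7.41%, and the third was 3.17% without Puberty 2.

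Puberty and postpuberty libraries did not overlap for 2 transcripts. XM_004021818.5, which held 66.5% to 100% of RARB, had 2.84, 0.0939 and 2.81 FPKM in puberty and 3.89, 3.32 and 3.45 in postpuberty, a difference of -0.85 (SE 0.49, adjusted p = 0.781, limma), or -0.25 (SE 0.24) without Puberty 2. XM_012185408.4, the main RXRG transcript, had 3.14, 5.86 and 3.34 FPKM in puberty and 2.44, 0.576 and 2.37 in postpuberty, a difference of 0.92 (SE 0.44, adjusted p = 0.781, limma), or 0.69 (SE 0.43) without Puberty 2. These separations held for the single transcripts and did not pass the test, and the gene sums of RARB and RXRG overlapped between the same stages. With the RBP4 transcript set aside this is 2 of 20, beside 8.48% of all mRNA transcripts.

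In the other comparisons 0 of the retinoid transcripts other than the RBP4 one were separate, beside 7.30% of all transcripts between prepuberty and puberty and 6.86% between prepuberty and postpuberty. Without Puberty 2, 2 transcripts of RXRA were separate between prepuberty and puberty (15.2% of all), and 5 transcripts, of RARB, RXRA and RXRG, between puberty and postpuberty (16.4% of all).

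Of the receptor genes, RARA and RXRA differed between animals in their leading transcript, while RARB and RXRG each had the same one in 9 of 9 libraries. For RXRA, XM_027966139.3 was the highest of 17 transcripts in 5 libraries, with 5.39 FPKM in Prepuberty 2, 5.26 in Puberty 1, 8.87 in Puberty 3, 4.66 in Postpuberty 2 and 7.90 in Postpuberty 3. In Prepuberty 1, Postpuberty 1 and Puberty 2 the highest was XM_060413723.1, at 4.60, 3.33 and 0.183 FPKM, while it stayed between 0.0518 and 0.109 in the other 6. In Prepuberty 3 it was XM_060413722.1, at 4.69 FPKM, which was listed at 0 in 7 libraries. The choice did not follow the stage, and outside Puberty 2 the RXRA sum stayed within 6.47 to 10.0 FPKM while it changed.

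The 3 libraries led by XM_060413723.1 were also those where XM_027960154.2 held most of RBP4 (83.7%, 78.3% and 99.1%, against 53.2% to 66.1% in the other 6). In them the summed FPKM of 6 neuron markers was 561, 415 and 283, against 1014 to 1277 in the other 6 libraries. Of 6 astrocyte markers, GFAP was higher in them (6624, 5632 and 5886 FPKM, against 2348 to 4779), while SLC1A3 (138, 152 and 98.0) lay within the range of the other 6 (up to 217). AQP4 was above the other 6 (78.4 to 181) in Prepuberty 1 and Postpuberty 1 (233 and 195) but lowest in Puberty 2 (18.3). SLC1A2, ALDH1L1 and GJA1 did not lie on 1 side of the other 6 in all 3 libraries. This set of libraries was noticed after the values were seen, and holds 1 animal of each stage. Puberty 2 belongs to it only through 0.183 of 0.567 FPKM of RXRA, with XM_042247977.2 next at 0.135, so its ranking rests on low values. The part of cell composition in the choice of RXRA and RBP4 transcripts was not tested.

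RARA was split between XM_027974579.2, highest in 5 libraries, and XM_004012862.6, highest in the other 4. XM_027974579.2 made up 42.3%, 72.0% and 74.6% of RARA in prepuberty, 47.4%, 0% and 81.8% in puberty and then 48.7%, 52.3% and 49.7% in postpuberty. For RXRG, XM_012185413.4 was listed at 0 in Prepuberty 1 and 3 and in Puberty 1 and 3, and it had 0.409, 0.538 and 0.792 FPKM in postpuberty. Its 0.903 FPKM in Prepuberty 2 and 1.31 in Puberty 2 mean that neither earlier stage lacked it. STRA6 had 5 different leading transcripts over the 9 libraries, at levels of 2.30 FPKM or less.

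**Figure D4:**
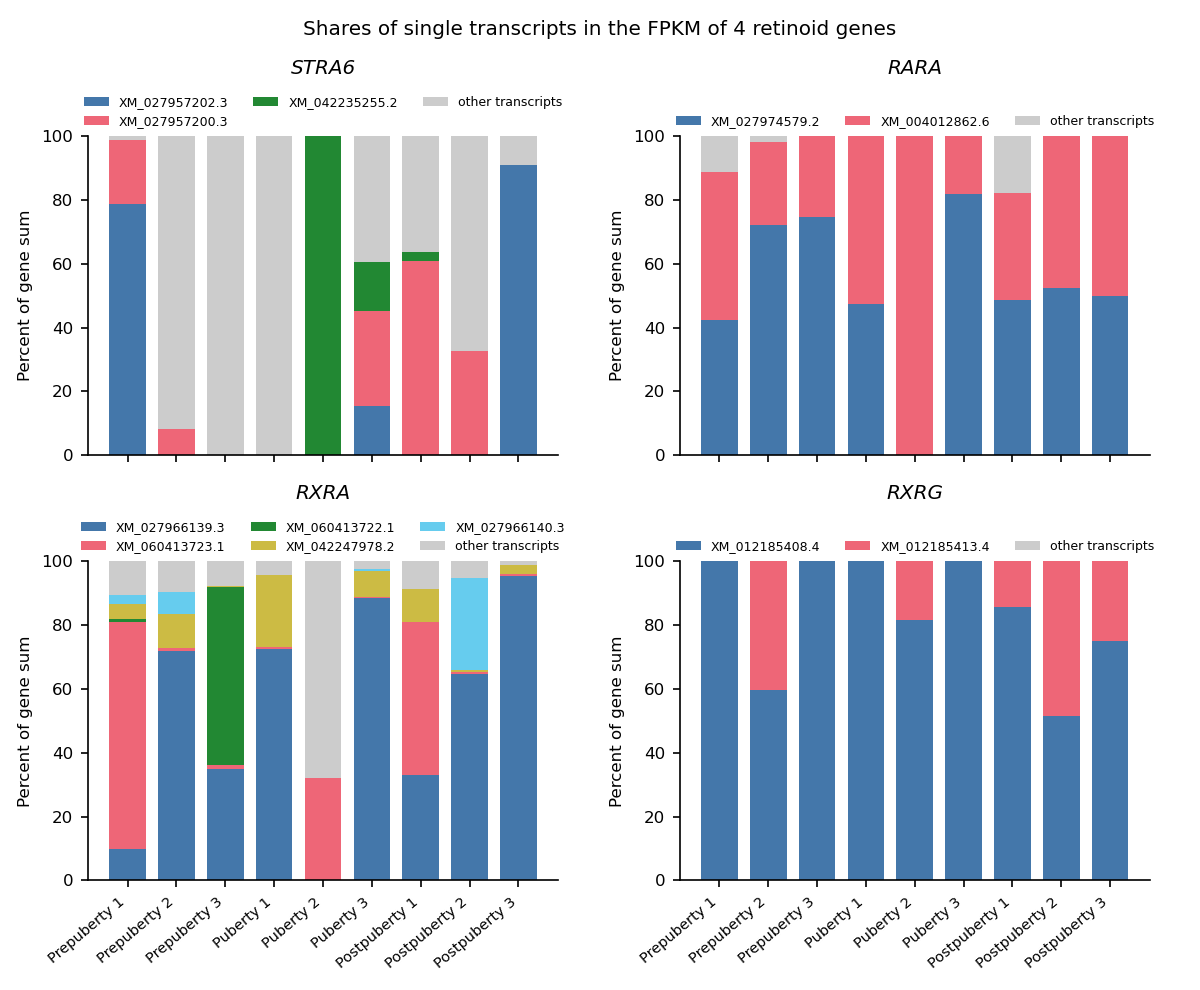
Percent of the gene's FPKM held by each transcript (stacked bars, 0 to 100) in each library for STRA6, RARA, RXRA and RXRG; coloured transcripts reached a mean of 0.5 FPKM in at least 1 stage and grey is the sum of the rest. The leading RXRA transcript is XM_060413723.1 in Prepuberty 1, Postpuberty 1 and Puberty 2, XM_060413722.1 in Prepuberty 3 and XM_027966139.3 in the remaining 5 libraries, so it changes within stages.

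Several of the 9 genes were high in the same libraries. Prepuberty 1 had the highest STRA6, CRABP1, ALDH1A1 and ALDH1A2 of all 9 libraries, and Postpuberty 2 had the lowest CRABP1, ALDH1A1, ALDH1A2 and RXRG. All 10 markers fixed for meninges and perivascular fibroblasts were measured. Their summed FPKM was 185 in Prepuberty 1, 222 in Postpuberty 1, 181 in Puberty 3 and 94.8 in Postpuberty 3, and 20.2 to 36.5 in the other 5 libraries. The collagen gene COL1A2 alone went from 4.51 FPKM in Puberty 2 to 66.9 in Postpuberty 1. Of the 10 markers, LUM and OGN overlapped between the 4 libraries and the other 5, and the rest did not. In Postpuberty 3 LUM and OGN were 6.69 and 0.657 FPKM, below the 9.29 and 1.16 of Postpuberty 2. In those 4 libraries ALDH1A2 was 4.23, 3.08, 1.90 and 1.97 FPKM, above the 0.445 to 1.60 of the other 5.

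The same 4 libraries had 2.01 to 3.04 FPKM of RARA, against 1.13 to 1.55 in the other 5, and 10.4 to 27.1 of CRABP1, against 2.27 to 10.3. For CRABP1 this was almost a tie, with 10.35 in Postpuberty 1 and 10.34 in Puberty 1. RARB and RXRA did not follow this order: Prepuberty 1, 1 of the 4, had the second lowest RARB (2.69) and the lowest RXRA (6.47) outside Puberty 2. The marker sums ranged from 36.0 to 185 within prepuberty, 20.2 to 181 within puberty and 32.8 to 222 within postpuberty, and their part in the values of the retinoid genes was not tested. In bulk tissue, fewer cells of a type and less RNA per cell cannot be told apart.

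CRABP2, a carrier that passes retinoic acid to its receptors, is outside the 9 genes and is named here after its values were seen. It had 8.61, 0.0825 and 0.573 FPKM in prepuberty, 0.510, 0.780 and 5.53 in puberty and then 9.69, 0.222 and 3.68 in postpuberty. Prepuberty 1, Puberty 3, Postpuberty 1 and Postpuberty 3 were its highest libraries, the same 4 in which the fibroblast markers were high. Outside Puberty 2, the sums of 10 tanycyte and ependyma markers (250 to 365 against 101 to 140 FPKM) and of 6 astrocyte markers (5058 to 7141 against 2767 to 3963) were also highest in these 4, the former mostly from VIM and RARRES2 and the latter from GFAP. In Puberty 2 they were 466 and 6105. Outside Puberty 2, the single astrocyte markers did not move together. GFAP and AQP4 were higher in these 4 libraries than in the rest, and ALDH1L1 and GJA1 overlapped. SLC1A2 (at most 43.5 against at least 70.1 FPKM) and SLC1A3 (at most 152 against at least 164) were lower in them. Of the tanycyte and ependyma markers, only VIM and RARRES2 were higher in all of these 4 libraries than in the rest. CRYM, DIO2, LHX2, FOXJ1, CCDC153, SPEF2, TMEM212 and RAX overlapped, so most of that list did not follow the 4 libraries. RAX, a defining tanycyte gene, was at most 0.0975 FPKM, and the part of these cell types in the results was not tested.

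TTR, the transthyretin that carries the RBP4 protein in blood and cerebrospinal fluid and is made by the choroid plexus, varied widely. It had 337, 9.07 and 32.5 FPKM in prepuberty, 255, 554 and 7594 in puberty and then 47.1, 36.9 and 723 in postpuberty. The difference of prepuberty minus puberty was -4.40 (SE 1.67, unadjusted p = 0.0270, adjusted p = 0.838, limma), or -4.85 (adjusted p = 1) without Puberty 2, and the 2 stages overlapped in Prepuberty 1 and Puberty 1. Of the other choroid plexus markers, KL reached 9.17 FPKM, AQP1 13.3 and KCNJ13 29.8 in Puberty 3, and KL was listed at 0 in Prepuberty 2, Prepuberty 3, Puberty 2 and Postpuberty 1. Summed over the 8 markers measured, most of it TTR itself, the range was 13.4 to 342 FPKM in prepuberty, 257 to 7657 in puberty and 39.8 to 732 in postpuberty, and the part of choroid plexus tissue in the TTR difference was not tested. RBP4 was 42.2 FPKM in Puberty 3, within the range of the other libraries.

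**Figure D5:**
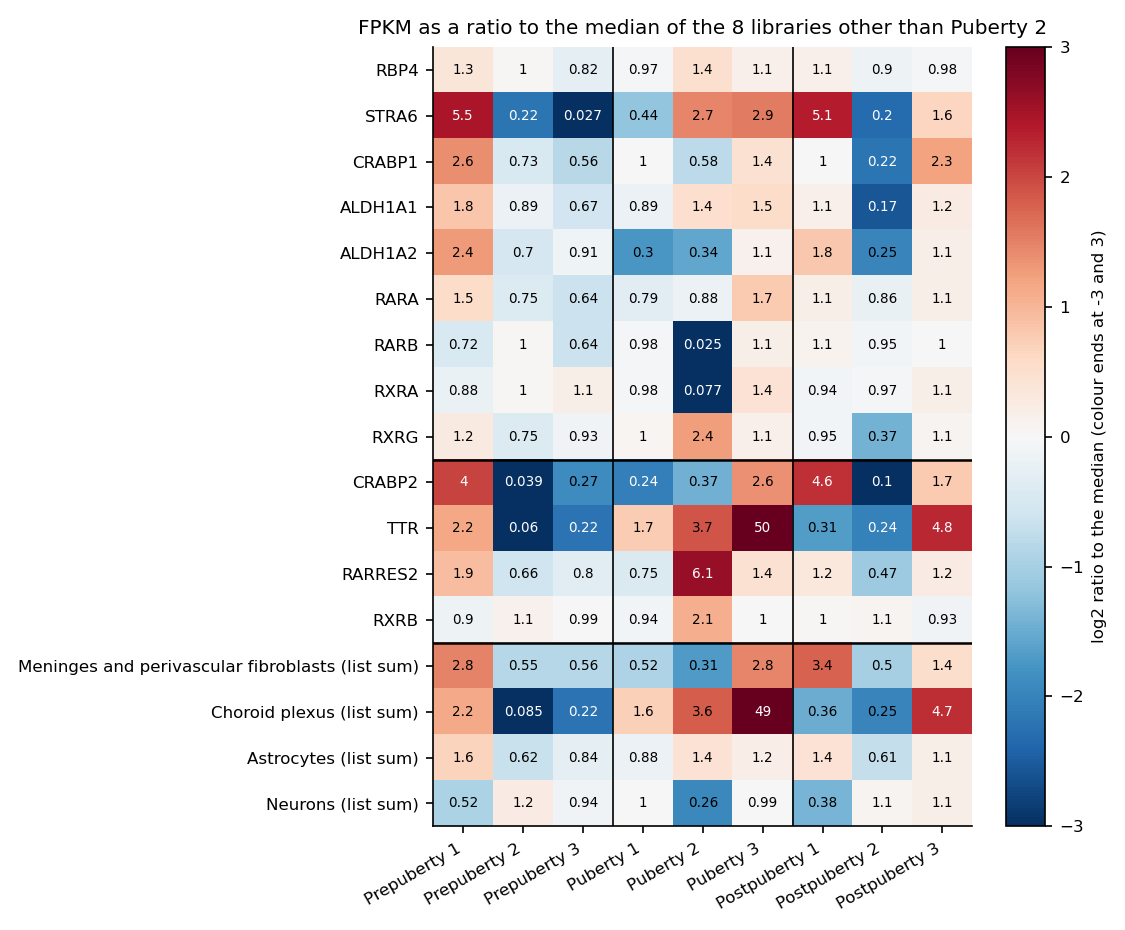
FPKM of the 9 genes, 4 other retinoid genes and 4 marker lists (sums) in each library as a ratio to the median of the 8 libraries other than Puberty 2; colour is the log2 ratio and ends at -3 and 3, and the printed number is the ratio. STRA6 (5.5 times), ALDH1A2 (2.41) and the fibroblast markers (2.82) are raised together in Prepuberty 1, while RARB (0.0252) and RXRA (0.0768) are low in Puberty 2 alone.

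The rest of the pathway was read from lists of further genes. None of them was called by limma in any comparison, with or without Puberty 2. Of 43 distinct genes tested, 1 (TTR) had an unadjusted p below 0.05 between prepuberty and puberty and 0 in the other comparisons. Without Puberty 2, 44 were tested, and 1 gene passed that level between prepuberty and puberty (TTR) and 1 between prepuberty and postpuberty (NCOR1). Their median log2 fold changes were 0.01, -0.12 and -0.07, against 0.14, -0.19 and -0.05 for all genes. Without Puberty 2 both medians that involve puberty turned, to -0.13 and 0.09, against -0.02 and -0.03 for all genes.

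Of 13 carriers and uptake genes 6 passed the minimum. By mean, the most abundant after TTR was FABP5, a fatty acid-binding protein that also carries retinoic acid, at 67.7 to 128 FPKM. FABP5 exceeded TTR in Prepuberty 2, Prepuberty 3, Postpuberty 1 and Postpuberty 2. RBP2 and RBP7 were listed at 0 in all 9 libraries. Of 20 genes that oxidise or reduce retinol and retinal, 16 were measured (DHRS4, ADH4, ADH5 and ADH7 were not analysed here) and 12 passed, led by AKR1B1, an aldehyde reductase, and by RDH14, a retinol dehydrogenase. AKR1B1 had 19.4, 18.9 and 23.8 FPKM in prepuberty, 28.2, 25.4 and 27.2 in puberty and then 17.2, 20.1 and 25.3 in postpuberty. Puberty was above both other stages in every library, by 0.37 on the log2 scale over each (SE 0.23, smallest adjusted p 0.780, limma), or by 0.41 without Puberty 2 (SE 0.19, adjusted p = 1).

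RDH14 was lower in every puberty library (10.3, 7.17 and 9.98 FPKM) than in every postpuberty library (11.1, 12.3 and 12.6), a difference of -0.37 (SE 0.26, adjusted p = 0.780, limma), or -0.22 (SE 0.22, adjusted p = 1) without Puberty 2. RDH11, another retinol dehydrogenase, was 10.5 to 10.8 FPKM in prepuberty and 8.46 to 9.53 in postpuberty (0.23, SE 0.32, adjusted p = 1, limma). DHRS9, which oxidises retinol, was 0.667 to 0.857 in puberty and 0.206 to 0.494 in postpuberty (0.39, SE 0.22, adjusted p = 0.780, limma), or 0.41 without Puberty 2. The separations of these 3 genes did not pass the test.

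Of 5 genes of retinoic acid breakdown only CYP2C19 had a value, at most 0.0242 FPKM, and CYP26A1, CYP26B1, CYP26C1 and CYP2S1 were not analysed here. Of 18 further receptors and cofactors 15 passed the minimum. RXRB, the third RXR, was higher than RXRA in all 9 libraries, with 15.3 to 18.7 FPKM in 8 of them and 36.3 in Puberty 2. RARG, the third RAR, also named after its value was seen, was at 1.42 to 2.55 FPKM. NR1H2, an oxysterol receptor that pairs with RXR, was 14.2, 18.5 and 18.0 FPKM in prepuberty and 19.0, 32.6 and 22.7 in puberty, a difference of -0.50 (SE 0.29, adjusted p = 0.838, limma) that was -0.29 (SE 0.24, adjusted p = 1) without Puberty 2. NCOR1, a corepressor of unliganded receptors, was 3.10, 2.53 and 3.64 in prepuberty and 13.2, 3.89 and 11.3 in postpuberty, a difference of -1.22 (SE 0.70, adjusted p = 1, limma, SE 0.52 without Puberty 2).

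Of 18 known targets of retinoic acid receptors, 15 were measured and 14 passed, and their medians were 0.12, -0.12 and -0.07 in the order given for CRABP1. Without Puberty 2 both medians that involve puberty turned, to -0.23 and 0.11. RARRES2, which encodes the adipokine chemerin, was the most abundant, at 24.5 to 99.3 FPKM in 8 libraries and 315 in Puberty 2. NTRK2, the receptor of brain-derived neurotrophic factor, followed at 1.42 to 47.3. Without Puberty 2, DRD2 and RET were higher in every puberty than in every prepuberty library. With all 9 libraries both genes overlapped between the stages, and RET was listed at 0 in Puberty 2.

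Over all lists, 2 of 43 genes (4.65%) were separate between prepuberty and puberty, 3 (6.98%) between puberty and postpuberty and 2 (4.65%) between prepuberty and postpuberty. Among all genes the shares were the 5.16%, 7.32% and 4.57% given above. Without Puberty 2, 4 of 43 (9.30%) were separate between prepuberty and puberty and 5 (11.6%) between puberty and postpuberty, beside 11.7% and 14.0% of all genes.

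The genes whose pattern over the 8 libraries was most like that of each retinoid gene were found by Pearson's r of log2(FPKM + 1) among 12322 genes, as a description over few libraries that share tissue composition. For RBP4 they were PAAF1, LOC101106919, NUP35, MARCHF3 and CISD2, each with r of 0.95. With Puberty 2 included their r fell to between -0.26 and 0.44. For STRA6 they were KRT19 (r = 0.99), an epithelial keratin, FBXL7 and TAMALIN, for CRABP1 they included LOC101107570 and CD44 (0.97 each), for ALDH1A1 MED21 (0.98), CEP57L1 and MCC, and for ALDH1A2 WDR81 (0.97), ITGB3 and APIP. The receptors were closest to TIMP1 (0.97), CHID1 and COBLL1 for RARA, ELMOD2 (0.96), LOC101105614 and SLC25A46 for RARB, LZTS1 (0.96), LOC101121873 and RBM19 for RXRA, and MCC (0.98), COLEC11 and CEP57L1 for RXRG. MCC and CEP57L1 appeared for both ALDH1A1 and RXRG, but with Puberty 2 included their r was 0.20 and 0.28 with ALDH1A1 and -0.38 and -0.32 with RXRG. Of the other names, RBM19 and LOC101121873 fell to -0.37 and 0.48 with RXRA and CHID1 to 0.073 with RARA when Puberty 2 was included. In these lists 0 of the 9 genes appeared beside another.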

How the data were processed

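Hypothalamus RNA of 9 ewes was sequenced from poly(A) libraries with paired-end reads. The authors trimmed reads with Trimmomatic, aligned them with HISAT2 to ARS-UI_Ramb_v3.0 and assembled and quantified transcripts with StringTie. The deposited values are FPKM for each transcript, although the table is described as raw counts. Read counts were not used here, so precision rests on the 3 animals of a stage.

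Stage and replicate came from the sample labels. RefSeq symbols matched 76682 of 76684 NM and XM rows, which were summed for each gene. Genes with a mean of at least 0.5 FPKM in at least 1 stage (14238) were tested with limma 3.58.1 in R 4.3.3 on log2(FPKM + 1), all 9 libraries in 1 fit with a trend of the variance, and Benjamini-Hochberg adjustment over all genes. Transcripts (27675) were fitted in the same way. A call needed an adjusted p below 0.05 and a log2 fold change of at least 1. The fit was tested on simulated data, and no result of that check is given here. The smallest two-sided p of an exact permutation test with 3 libraries in each stage is 0.1, so none was run.

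The genes and lists were chosen with earlier results of these data known. Named are the 9 genes, their tested transcripts, and of each list the 2 highest genes and those called or not overlapping between 2 stages. The 5 genes most like RBP4 and the 3 most like each other gene were also found, by Pearson's r over 8 libraries among genes with a mean of at least 1 FPKM. Alternatives were scaling to equal totals, quantile normalization, no filter, a pseudocount of 0.1, no variance trend, NR and XR transcripts included, the replicate number as a block, and leaving out each library. Python 3.11.15 with numpy 2.4.6, pandas 2.3.3 and matplotlib 3.10.9 was used. A few genes that this rule names are not reported here.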

Additional observations from a re-analysis of the deposited data

How the results depend on the processing

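Of the 27 differences of the 9 genes, 25 had a test (RBP4 against postpuberty did not), and of these 0 passed the limma thresholds under any of 16 alternatives, with a smallest adjusted p of 0.516. Of the 27, 6 kept their sign throughout, although ALDH1A1 for puberty minus postpuberty fell from 0.86 to 0.088 without Postpuberty 2. Scaling every library to the same total turned RBP4 for prepuberty minus puberty (0.051) and, for puberty minus postpuberty, RBP4 (-0.027), STRA6 (-0.12), CRABP1 (-0.070) and RARA (-0.10), with the median of all genes moving to 0.26 and -0.33. Quantile normalization turned CRABP1 for prepuberty minus puberty (-0.000377) and RXRA for prepuberty minus postpuberty (0.056). Leaving out 1 library turned 8 differences for Postpuberty 2, 6 for Puberty 2, 5 each for Prepuberty 1 and Prepuberty 3, 4 for Puberty 3, 2 each for Prepuberty 2 and Postpuberty 3, 1 for Postpuberty 1 and 0 for Puberty 1. The ranges over these omissions, for prepuberty minus puberty, were -0.32 to 0.00202 for RBP4, -0.90 to 0.081 for STRA6, -0.48 to 0.55 for CRABP1, -0.62 to 0.040 for ALDH1A1, -0.39 to 0.076 for RARA, -0.33 to 0.79 for RARB and -0.18 to 1.23 for RXRA. For puberty minus postpuberty they were -0.40 to 0.48 for STRA6, -0.66 to 0.81 for CRABP1, -0.20 to 0.18 for RARA, -1.08 to 0.047 for RARB and -1.24 to 0.17 for RXRA. For prepuberty minus postpuberty they were -0.11 to 0.21 for RBP4, -0.88 to 0.21 for STRA6, -0.51 to 0.96 for CRABP1, -0.15 to 1.03 for ALDH1A1, -0.16 to 0.59 for ALDH1A2, -0.35 to 0.026 for RARA, -0.087 to 0.079 for RXRA and -0.058 to 0.43 for RXRG. The cause of these turns was not tested. The number of mRNA transcripts called between prepuberty and puberty ranged from 0 to 1, the 1 coming without Prepuberty 1. No pairing of same-numbered animals is stated. Correlations of their deviations ranged from -0.315 to 0.515, against -0.561 to 0.308 for different numbers, and cannot settle whether pairs exist. With the replicate block limma called 0 genes and 0 transcripts, with an unadjusted p below 0.05 for 281, 327 and 103 genes. The mean share of RBP4 in XM_042239101.1 was 8.15% to 10.1% when 1 postpuberty library was left out. Read depth for single transcripts is unknown, so a value listed at 0 gives no limit on the level.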
